A study of Mus musculus with 45 samples.

Results

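The expression drift of E16.5 cortical cells is the change in RNA level between the start and the end of a 12 h uridine chase in culture. It was measured in 12922 of the 53491 genes listed, those with more than 500 covered Ts (T positions under aligned reads, the count on which the tests were run) in all 6 libraries taken at 0 h and 12 h. The lowest count among these genes was 501, and the highest among the genes left out was 500. Another 681 genes passed this level in the 3 libraries of 0 h but not in all of 12 h, and 76 passed it at 12 h but not in all of 0 h. They were not tested, and genes that nearly vanished or newly appeared would be among them. The level is a raw count, and depth differed between the ends. From 0 h to 12 h it went from 341.5 to 489.7 M covered Ts in pool A, from 551.2 to 315.1 M in B and from 482.4 to 271.3 M in C. Genes near the level can pass or fail it through depth, so these counts do not measure genes lost and gained.

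The study followed RNA decay in wild type mouse primary cortical cells by SLAM-seq, in which 4-thiouridine (4sU) built into new RNA is read as T-to-C conversions after alkylation. At E16.5, cortices of 2 embryos were pooled for each of 3 replicates (A, B and C), dissociated with trypsin, and divided over 5 wells, 1 for each chase time. All wells, 0 h included, received 100 uM 4sU for 20 h, with medium exchanges up to shortly before the chase, and 5 mM uridine was then added. RNA was taken at 0, 2, 4, 8 and 12 h, which gave 15 libraries at E16.5, and E11.5 and E14.5 cells went through the same times. The medium was a neural progenitor medium with N-acetyl-L-cysteine, N2, B27 without vitamin A and basic FGF, and its last exchange came before 0 h. Time in culture, time since that exchange and exposure to uridine therefore grew together, and their parts in any change below cannot be told apart. No well without 4sU or without uridine was analysed here.

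Late in cortical neurogenesis, radial glia in the ventricular zone still divide to give intermediate progenitors and upper-layer neurons, while gliogenesis begins. Cells placed in culture leave their tissue niche and respond to dissociation, to growth factors such as FGF, which signal through ERK to immediate early genes, and to the supply of amino acids and lipids. Transcripts of cell cycle regulators rise and fall with the phases of the cycle, replication genes around entry into S phase and mitotic genes at the G2/M transition.

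The 15 libraries held between 247.6 and 618.3 M covered Ts and between 17.4 and 42.8 M reads. At the ends, depth ran from 341.5 to 551.2 M covered Ts at 0 h and from 271.3 to 489.7 M covered Ts at 12 h. Over all covered Ts of a library, the share converted was 1.80% to 1.91% at the start and 0.24% to 0.25% at the end. Across genes, log levels of libraries of the same time correlated with r between 0.994 and 0.996, and those of 0 h and 12 h of one pool with r between 0.989 and 0.990. Genes are not independent replicates, and these r are descriptions.

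Many genes drifted, and few drifted far. Over 12 h, 2998 genes rose (23.2%) and 2811 fell (21.8%) at an adjusted p under 0.05, so that 5809 genes (45.0%) changed. The median change of the genes called was 0.26 on the log2 scale for those that rose and -0.28 for those that fell, against 0.003 over all genes tested. Only 36 genes (0.279%) rose and 38 (0.294%) fell more than 2-fold. In 3073 genes (23.8%) all 3 libraries of 12 h lay above all 3 of 0 h, and in 3127 (24.2%) all lay below, so that the ends did not overlap in 6200 genes (48.0%).

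The drift was gradual at the level of all genes. Against 0 h, 1246 genes (9.64%) were higher and 1549 (12.0%) lower at 2 h, 2034 (15.7%) and 2237 (17.3%) at 4 h, and 2516 (19.5%) and 2465 (19.1%) at 8 h. Genes called up at 12 h had median changes of 0.05, 0.12, 0.20 and 0.26 at 2, 4, 8 and 12 h, and genes called down of -0.07, -0.16, -0.22 and -0.28. All these times share the libraries of 0 h. An F-test over the 4 times called 8285 genes (64.1%).

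**Figure D1:**
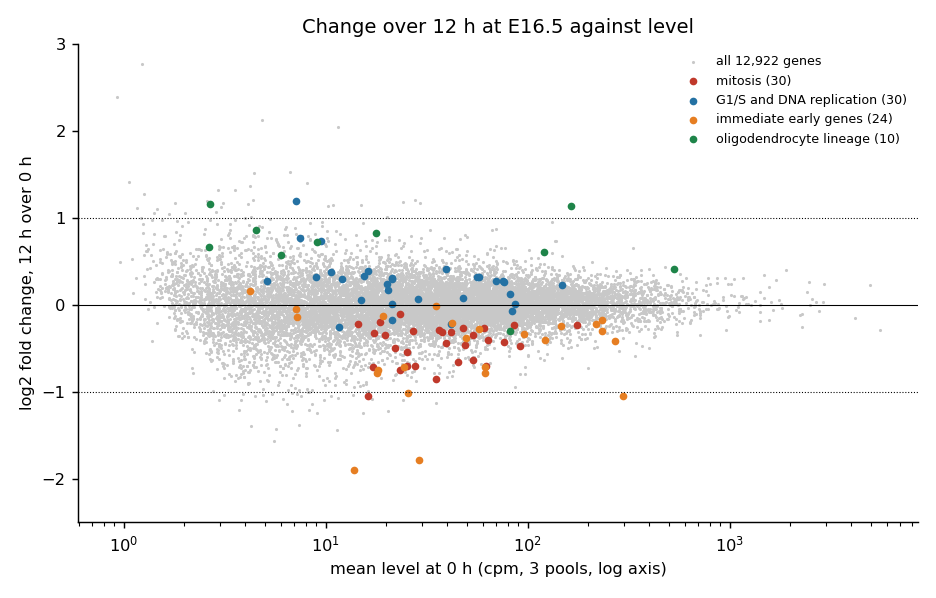
Change over 12 h at E16.5 (log2 fold change, vertical axis) against the mean level at 0 h (cpm, log axis) of the 12922 genes tested (grey), with 4 gene lists in colour and dotted lines at 2-fold. Most genes lie within the dotted lines, mitosis genes lie below 0 and 9 of 10 oligodendrocyte lineage genes lie above it.

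The 2 largest falls among protein-coding genes, Egr3 and Egr2, were in immediate early genes, transcription factors that respond to growth factors and activity within minutes. Egr3 was at 14.9, 13.9 and 12.6 cpm (reads scaled to the library's total) in pools A, B and C at 0 h and at 3.39, 3.36 and 3.97 cpm at 12 h. Every library of 12 h was below every library of 0 h, a log2 change of -1.90 ± 0.13 (SE; adjusted p = 1.07e-10). Most of this fall was present early, with log2 changes of -1.08 at 2 h and -1.12 at 4 h.

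Egr2, of the same zinc finger family, was at 29.6, 30.8 and 26.4 cpm at 0 h and at 9.73, 9.02 and 7.07 cpm at 12 h (log2 change -1.79 ± 0.10, adjusted p = 5.75e-11). Egr1 went from 306, 307 and 280 cpm to 157, 136 and 132 cpm (-1.05 ± 0.05, adjusted p = 5.26e-12). Fos, a subunit of the AP-1 factor, went from 28.3, 25.4 and 22.9 cpm to 11.49, 11.92 and 13.99 cpm (-1.01 ± 0.08, adjusted p = 1.61e-09). In all 3 genes the groups did not overlap. Egr1, Egr2 and Fos had mean levels at 4 h above those at 2 h and 8 h: the mean log2 changes at 2, 4 and 8 h were -0.39, -0.14 and -0.82 for Egr1, -0.89, -0.61 and -1.39 for Egr2, and -0.77, -0.42 and -1.04 for Fos.

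Of the 24 immediate early genes measured of 30 listed, 0 rose and 19 fell, with a median log2 change of -0.36 against 0.003 for all genes. Their median was already -0.31 at 2 h, when 17 of them were below 0 h. The AP-1 subunit Junb (-0.75), the rapid response gene Ier2 (-0.78), the nuclear receptor Nr4a1 (-0.71) and the synaptic gene Arc (-0.72) fell as well. Zfp36 (-0.14), Klf10 (-0.12), Ier3 (-0.05), Btg2 (-0.02) and the activity-dependent factor Npas4 (0.15) did not pass the test. The list had the shortest median half-life of the 41 lists with a fit. Fitted from the loss of conversions in the same E16.5 libraries, the median half-life of its 24 genes was 1.45 h, against 3.48 h over the 11932 genes with a fit. Egr3 had a half-life of 1.04 ± 0.144 h (SD over 3 pools), Egr2 of 1.37 ± 0.13 h and Fos of 1.25 ± 0.0962 h.

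Feedback genes of the FGF and ERK pathway were mostly lower. Of 16 measured, 2 rose and 9 fell, with medians of -0.08, -0.11, -0.16 and -0.18 at 2, 4, 8 and 12 h. Dusp6, a phosphatase that inactivates ERK, fell by 0.25 on the log2 scale, Dusp4 by 0.44, Dusp5 by 0.46 and Spry2, an inhibitor of receptor signalling, by 0.32. Il17rd, a membrane antagonist of FGF signalling, rose from 6.66, 6.18 and 6.41 cpm to 11.6, 10.7 and 11.7 cpm (0.80 ± 0.08, adjusted p = 7.19e-08). Ccnd1 (0.17), cyclin D1, was the other member that rose.

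The CArG box, the binding motif of serum response factor, was searched on either strand in promoter windows (250 bases before to 50 after the start, RefSeq, GRCm38.p6). It was found in 6 of 24 promoters of measured immediate early genes (25%). The 24 promoters cover 18 genes, and the 6 belong to 3 genes, Egr2 (4 of its 5 promoters), Srf and Zfp36. Egr1, Egr3, Arc, Ier2, Klf10 and Myc had no promoter in the set and were not searched. The box was in 1.63% of all 32851 promoters and in 1.31% of those of the genes tested. The windows around the boxes of Egr2 and Srf are shown because Egr2 fell by 1.79 and Srf, the factor itself, by 0.28 on the log2 scale, while Zfp36 did not pass the test. Capitals mark the boxes, at chr10:67537444-67537553 (plus strand) for Egr2 and chr17:46556165-46556274 (minus strand, printed 5′ to 3′ on the gene's strand) for Srf.
Egr2: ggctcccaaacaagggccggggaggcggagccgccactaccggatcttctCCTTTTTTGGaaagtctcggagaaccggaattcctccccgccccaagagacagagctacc
Srf: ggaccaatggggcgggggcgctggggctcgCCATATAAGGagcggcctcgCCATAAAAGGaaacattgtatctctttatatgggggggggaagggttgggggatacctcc
A match of letters is a description of the sequence and not a measured site of binding.

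Mitotic genes fell nearly as a whole. Of 30 listed and measured, 0 rose and 28 fell, and in 27 all libraries of 12 h were below all of 0 h, where 24.2% of all genes had this order. The median log2 change was -0.13, -0.23, -0.45 and -0.41 at 2, 4, 8 and 12 h, and the list's summed level went from between 1279 and 1407 cpm at 0 h to between 943 and 1064 cpm at 12 h. The fall at 12 h ranged from -1.05 (Nek2) to -0.11 (Bub1).

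Nek2, a kinase of centrosome separation, was at 16.93, 16.04 and 15.44 cpm at 0 h and at 8.26, 8.90 and 6.83 cpm at 12 h (-1.05 ± 0.08, adjusted p = 4.1e-10). Cenpa, the centromeric histone H3 variant, was at 34.2, 36.5 and 34.5 cpm and then at 19.4, 21.8 and 17.7 cpm (-0.85 ± 0.07). Ccnb1, the mitotic cyclin B1, was at 24.2, 23.5 and 22.1 cpm and then at 13.6, 15.03 and 12.8 cpm (-0.75 ± 0.07). The groups were separate in these 3 genes, and all 3 were near their 0 h level at 2 h, with log2 changes of -0.02, 0.03 and -0.06.

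Ccnb2 (-0.71), the kinesin Kif23 (-0.71), the ubiquitin-conjugating enzyme Ube2c (-0.71), Cenpe (-0.70) and Cdc20 (-0.66) followed. Among the smallest changes were Top2a (-0.23), Ccna2 (-0.23) and Ttk (-0.22), which fell, and Anln (-0.20) and Bub1 (-0.11), which did not pass the test. Mki67, the proliferation marker, had the least certain fall called, from 81.3, 102 and 91.1 cpm to 67.2, 60.8 and 68.0 cpm (-0.47 ± 0.17, adjusted p = 0.0478). The fitted half-lives of this list were not short, with a median of 4.27 h in the 27 genes with a fit.

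The CHR motif, TTTGAA on either strand, is known as the element through which cell cycle complexes act on late cell cycle genes. It was in 22 of 28 promoter windows of the mitosis list (78.6%), which belong to 20 of 26 genes, against 17.9% of all promoters and 1368 of the 11921 promoters of the genes tested. It was in 3 of 26 promoters of replication genes, 3 of 24 of immediate early genes and 3 of 25 of stress response genes. Nek2 (-1.05) and Ccnb1 (-0.75), among the largest falls of the list, did not carry it, nor did Cenpe, Nusap1, Birc5 and Bub1. Ccna2, Aurkb, Kif20a and Tpx2 had no promoter in the set and were not searched. Ccnb2, Kif23 and Ube2c are shown as the carriers with the largest falls whose motif ends no later than 20 bases after the start. Capitals mark the motif (Ube2c carries it on the other strand). The windows are at chr9:70421535-70421600 (minus strand), chr9:61946780-61946847 (minus strand) and chr2:164769850-164769948 (plus strand) of GRCm38.p6, and each ends 20 bases after the annotated start.
Ccnb2: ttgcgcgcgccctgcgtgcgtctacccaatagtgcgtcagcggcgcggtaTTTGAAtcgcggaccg
Kif23: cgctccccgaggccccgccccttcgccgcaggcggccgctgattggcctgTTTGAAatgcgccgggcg
Ube2c: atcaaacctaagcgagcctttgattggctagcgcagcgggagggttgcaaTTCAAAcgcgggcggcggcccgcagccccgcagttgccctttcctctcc

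Genes of the G1/S transition and DNA replication moved the other way. Of 30 measured, 19 rose and 3 fell, with a median of 0.27. This rise came late: the median was 0.02, -0.08 and 0.03 at 2, 4 and 8 h, and at 4 h 0 members were above 0 h and 9 below it. The summed level of the list ran from 1084 to 1209 cpm at 0 h, from 1002 to 1159 cpm at 4 h and from 1243 to 1388 cpm at 12 h.

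Ccne2, a cyclin E that drives entry into S phase, rose from 7.38, 8.39 and 5.63 cpm to 16.47, 15.66 and 16.7 cpm (1.19 ± 0.09, adjusted p = 3.2e-10). Ccne1, its paralogue, went from a mean of 9.48 ± 0.45 cpm at 0 h to one of 16.01 ± 0.53 cpm at 12 h (SD, n = 3; log2 change 0.73 ± 0.08). Cdc6, which loads the replicative helicase, went from 7.08, 8.37 and 7.00 cpm to 12.7, 13.9 and 12.1 cpm (0.77 ± 0.09). In Ccne2, Ccne1 and Cdc6 the libraries of 12 h lay above those of 0 h, and the change at 4 h was between -0.19 and 0.15.

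The sliding clamp Pcna (0.42) rose by less, as did Tk1 (0.38) and Tyms (0.33), enzymes of nucleotide supply. The helicase subunits were unequal: Mcm4 (0.32), Mcm3 (0.27), Mcm6 (0.26) and Mcm2 (0.13) rose, while Mcm5 (0.01) and Mcm7 (-0.07) did not pass the test. Gins1 (-0.25), Rfc3 (-0.22) and E2f1 (-0.18), the transcription factor of this gene group, fell.

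The E2F motif, searched as TTTGGCGC or TTTCGCGC on either strand, was in 8 of 26 promoter windows of the replication list (30.8%), against 0.813% of all promoters and 1.52% of those of the genes tested. The 8 genes were Mcm3, Mcm6, Pola1 and Uhrf1, which rose, Rfc3, which fell, and Mcm5, Mcm7 and Cdt1, which did not pass the test. Uhrf1, a reader of hemimethylated DNA (0.32), and Pola1, the catalytic subunit of DNA polymerase alpha (0.31), are shown as carriers that rose, at chr17:56304078-56304185 (plus strand) and chrX:93632236-93632343 (minus strand) of GRCm38.p6, with the motif in capitals (Pola1 carries it on the other strand).
Uhrf1: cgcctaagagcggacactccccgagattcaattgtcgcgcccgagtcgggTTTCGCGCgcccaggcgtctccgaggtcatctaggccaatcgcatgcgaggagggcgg
Pola1: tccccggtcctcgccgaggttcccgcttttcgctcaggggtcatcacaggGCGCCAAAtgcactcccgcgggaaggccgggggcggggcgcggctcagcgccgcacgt

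**Figure D2:**
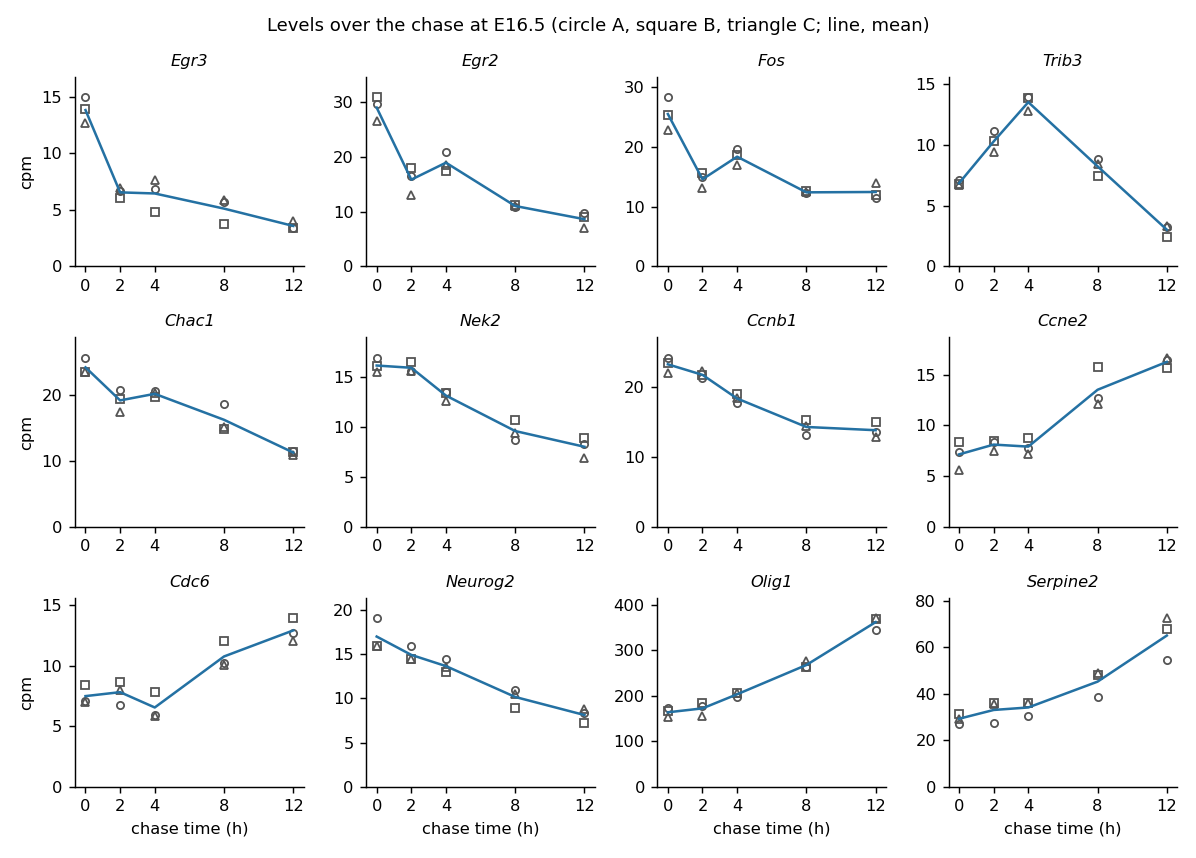
Levels (cpm, from 0) of 12 genes in all 15 E16.5 libraries over chase time (h), with a symbol for each pool and a line for the mean. Egr3, Egr2 and Fos dropped by 2 h, Trib3 peaked at 4 h, and Nek2 and Ccnb1 fell from 4 h on while Ccne2 and Cdc6 rose from 8 h on.

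Progenitor markers split. Of 18 radial glia genes measured of 19 listed, 13 rose and 4 fell, with a median of 0.36. Mfge8, a secreted glycoprotein of radial glia, rose from 134, 134 and 129 cpm to 253, 260 and 248.6 cpm (0.95 ± 0.04, adjusted p = 1.92e-13). Hes5, a Notch effector that maintains progenitors, rose from 7.76, 6.18 and 7.13 cpm to 12.8, 13.1 and 13.3 cpm (0.88 ± 0.10). Fabp7, the brain lipid-binding protein, rose from 327, 355 and 319 cpm to 561, 529 and 474 cpm (0.65 ± 0.05).

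The factors Pax6 (-0.33), Hes1 (-0.45), Gli3 (-0.45) and Hopx (-0.28) fell, while the filament gene Vim was nearly level (-0.05, not called) and Nes rose (0.34). Notch genes likewise had no common direction, with 6 of 14 up and 5 down and a median of 0.02. Hes5 and Hes1, both Notch effectors, moved in opposite directions, and the ligand Dll4 (-0.66), the ligand Jag1 (-0.51) and the glycosyltransferase Mfng (-0.63) fell.

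Genes of intermediate progenitors fell in the majority, with 3 up and 8 down of 14 and a median of -0.18. Neurog2, the proneural factor of the glutamatergic lineage, was at 19.1, 15.9 and 15.9 cpm at 0 h and at 8.35, 7.18 and 8.81 cpm at 12 h (-1.08 ± 0.08, adjusted p = 1.51e-10). Its groups were separate, and the level stepped down at each time, with log2 changes of -0.18, -0.27 and -0.71 at 2, 4 and 8 h. Insm1, a zinc finger factor of delaminating progenitors, fell by 0.57 and Eomes (Tbr2), the defining factor of these cells, by 0.46, whereas the kinesin Kif26b rose (0.51).

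In bulk libraries, fewer cells of a type and less RNA per cell cannot be told apart. This holds for every cell type list here.

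The oligodendrocyte lineage list had the highest median of the lists of cell types, 0.69, with 9 of its 10 measured genes (14 listed) up and 1 down. Olig1, a basic helix-loop-helix factor of this lineage, rose from 173, 166 and 152 cpm to 345, 369 and 371 cpm (1.14 ± 0.05, adjusted p = 1.92e-13). Sox10, required for its maturation, rose from 2.70, 3.48 and 1.87 cpm to 5.15, 7.30 and 5.04 cpm (1.16 ± 0.14, adjusted p = 6.32e-07). Both genes had separate groups, although Sox10 stayed low.

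Pdgfra, the growth factor receptor of oligodendrocyte precursors, went from 16.8, 22.8 and 13.7 cpm to 30.6, 41.0 and 23.9 cpm (0.83 ± 0.06), and each library of 12 h was above all of 0 h. Gpr17 (0.86), Cspg4 (0.72), Bcas1 (0.66), Olig2 (0.61) and Lhfpl3 (0.57) rose. Mbp, the myelin basic protein gene, fell (-0.30). Nkx2-2, Enpp6 and Matn4 were among those under the count limit, and Ptprz1 (0.42) is also a radial glia gene and Cspg4 also a gene of mural cells. The list's summed level was between 877 and 1006 cpm at 0 h and between 1341 and 1448 cpm at 12 h.

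Of the astrocyte list, 8 genes rose and 2 fell of 11 measured, with a median of 0.31. Apoe (0.73), the lipid carrier, Id3 (0.77) and Aldh1l1 (0.39) rose, and Clu (-0.34) and Id4 (-0.13) fell. The mature astrocyte genes Gfap, Aqp4, S100b, Gjb6 and Agt were not measured.

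**Figure D3:**
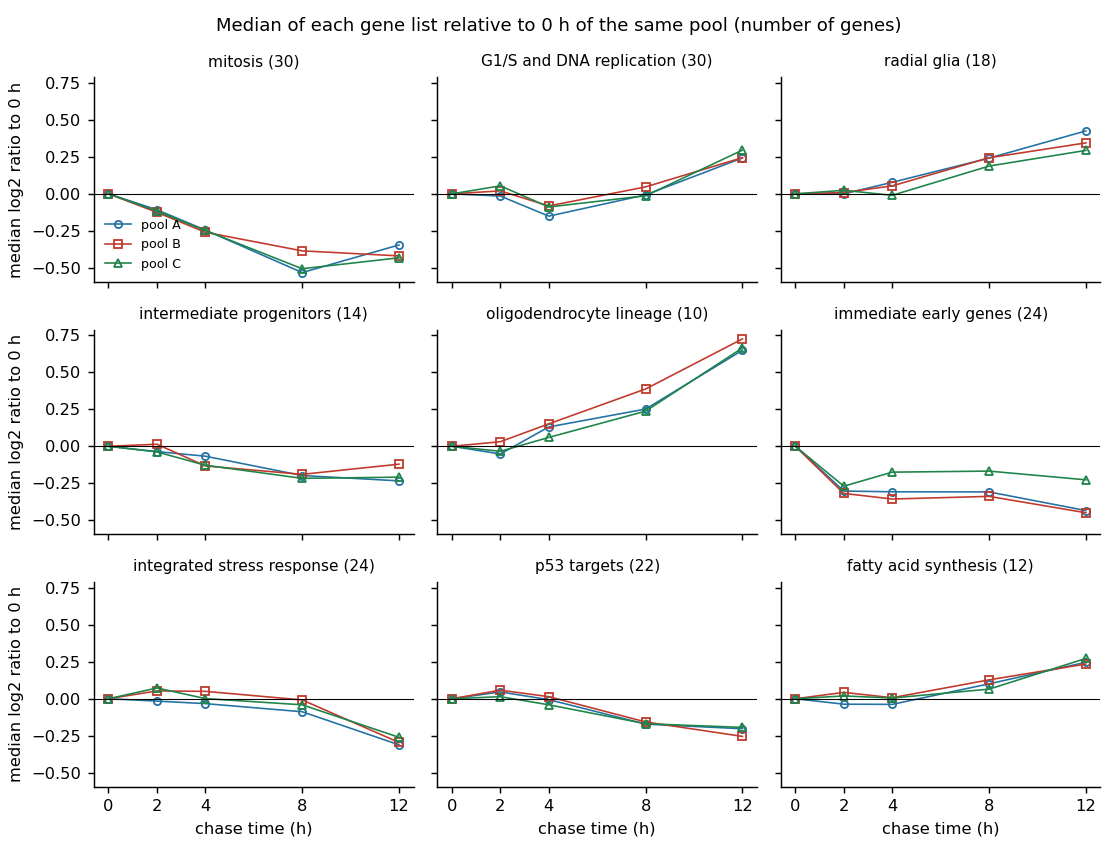
Median log2 ratio to 0 h of the same pool for 9 gene lists over chase time (h), 1 line per pool, with the number of genes in brackets. Mitosis medians lay below 0 from 2 h on, and the replication median rose between 8 and 12 h. The stress response median stayed near 0 until 8 h, and the oligodendrocyte median lay above 0 from 4 h on in all 3 pools.

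Lists of neuronal genes had median changes between -0.20 (interneurons) and 0.14 (synaptic genes). The synaptic list had 17 genes up and 2 down of 32, with a median of 0.14. Scn2a, a voltage-gated sodium channel, had the largest rise in it, from 77.2, 77.3 and 78.0 cpm to 124, 114 and 127 cpm (0.65 ± 0.05, adjusted p = 1.38e-10), after a change of -0.12 at 2 h. Grin1, the obligate NMDA receptor subunit, fell from 59.4, 53.5 and 57.6 cpm to 38.7, 38.0 and 36.5 cpm (-0.59 ± 0.06, adjusted p = 7.94e-08). Both had separate groups.

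Deep-layer neuron genes had 2 up and 6 down of 14 (median -0.09) and upper-layer genes 4 up and 5 down of 14 (median 0.01), against 23.2% up and 21.8% down over all genes. The deep-layer counts were 0 up and 5 down without pool B or pool C, and 0 up and 2 down without the pool as a block. Changes ran from -0.44 to 0.36 in the deep-layer list and from -0.46 to 0.40 in the upper-layer list. Among those that fell were the deep-layer factors Tbr1 (-0.30) and Bcl11b (-0.29), and Rorb (-0.46) and Cux2 (-0.42). Among interneuron genes 1 rose and 10 fell of 18 (median -0.20), with Dlx6os1 at -0.61, Sp8 at -0.55 and Gad2 at -0.34, while Sst (-0.02), Slc32a1 (0.01) and Erbb4 (0.06) did not pass the test. Axon guidance genes were divided, with 9 up and 11 down of 28 and a median of -0.04.

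The progenitor and neuron lists of the study were built there from single-cell data outside these libraries. Of 56 progenitor genes 11 rose and 31 fell, with a median of -0.15, and of 57 neuron genes 26 rose and 6 fell, with a median of 0.08 (17 and 3 without pool A). The progenitor list holds cell cycle genes such as Ccnb1 and intermediate progenitor genes such as Insm1 and Eomes among its largest falls, and the radial glia genes Hes5 and Sox9 (0.47) among its rises. In the neuron list the tubulin gene Tubb3 had the largest rise (0.40), and it overlaps another annotated gene, so that reads of the 2 genes may be shared.

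Genes of other cell types were mostly under the count limit. Microglia had 4 of 17 genes measured and 1 up and 1 down, with Cx3cr1, C1qa and Tmem119 not measured. Endothelial and mural cells had 5 of 18 and meningeal fibroblasts 2 of 12, with Cldn5, Pecam1 and Col1a1 not measured. Their summed levels at 0 h and 12 h overlapped between pools, at 26.2 to 39.9 against 32.3 to 42.5 cpm for microglia and at 88.0 to 105.8 against 99.6 to 115.2 cpm for endothelial and mural cells. Cajal-Retzius genes (7 of 10 measured) differed between pools, with medians of 0.44, 0.08 and -0.07 in A, B and C.

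Globin genes, the red cell list with 3 of 9 measured, all fell, with a median of -0.93. Hbb-bs went from 53.6, 73.9 and 131 cpm to 27.3, 53.4 and 49.0 cpm (-0.94 ± 0.20, adjusted p = 0.00545), so the pools differed by more than 2-fold at 0 h. Hba-a1 and Hbb-bt had overlapping groups, and none of the 3 was called in a fit without the pool as a block. The list's median conversion rate at 0 h was 0.118%, against 1.85% over all genes, and its median change was 0.47 at 2 h before the fall.

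Integrated stress response genes, induced through ATF4 when amino acids are short, fell late. Of 24 measured of 27 listed, 0 rose and 15 fell, with medians of 0.03, 0.01, -0.02 and -0.28 at 2, 4, 8 and 12 h. Their summed level was between 2551 and 2676 cpm at 0 h, between 2451 and 2506 at 8 h and between 2122 and 2191 at 12 h. The single genes took different courses to this end.

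Chac1, a glutathione-degrading enzyme, fell from 25.7, 23.4 and 23.5 cpm at 0 h to 11.49, 11.33 and 10.94 cpm at 12 h (-1.10 ± 0.07, adjusted p = 3.44e-11). It was below its 0 h level at each earlier time, with log2 changes of -0.34, -0.24 and -0.59 at 2, 4 and 8 h. Trib3, a pseudokinase that restrains this response, first rose, from 7.08, 6.75 and 6.68 cpm at 0 h to 13.9, 13.8 and 12.8 cpm at 4 h (0.99, adjusted p = 1.98e-07), and was at 3.28, 2.43 and 3.34 cpm at 12 h (-1.23 ± 0.11, adjusted p = 3.2e-09). In all 3 pools its level at 4 h was above that at 0 h, and its level at 12 h below both.

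Sesn2, a leucine sensor of the mTORC1 pathway, had the same order, from 56.2, 55.5 and 48.6 cpm to 73.6, 73.1 and 69.1 cpm at 4 h and 34.0, 31.6 and 32.4 cpm at 12 h (0.44 at 4 h and -0.69 ± 0.05 at 12 h). It overlaps another annotated gene and is also a p53 target. Slc7a11, the cystine transporter, was higher at 4 h (0.69, adjusted p = 3.17e-11) and 8 h (0.59) and back at its starting level at 12 h (0.01, adjusted p = 0.891). Cth, which makes cysteine, likewise was higher at 4 h (0.55) and 8 h (0.67) and not at 12 h (-0.08, adjusted p = 0.407). Slc7a11 and Cth were chosen for this course after their values were seen.

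The cationic amino acid transporter Slc7a1 fell from 203, 195 and 198 cpm to 120, 115 and 124 cpm (-0.73 ± 0.04, adjusted p = 9.97e-12), with most of the fall after 8 h (-0.23). Atf4 itself (-0.54), Ddit3 (-0.67) and the phosphatase subunit Ppp1r15a (-0.76) fell. The serine synthesis genes Phgdh (0.13), Psat1 (-0.05) and Psph (0.07) did not pass the test.

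The element TGATGNAA, bound by ATF4 with C/EBP partners, was searched on both strands and was in 6 of 25 promoter windows of this list (24.0%), against 3.97% of all promoters and 2.05% of those of the genes tested. Chac1 and Pycr1, an enzyme of proline synthesis that fell by 0.57 on the log2 scale, are shown as carriers that fell, at chr2:119350999-119351106 (plus strand, motif on the other strand) and chr11:120643794-120643901 (minus strand) of GRCm38.p6. Of the 6 carriers, Trib3, Chac1, Asns (-0.13) and Pycr1 fell, and Slc7a11 and Vldlr (0.01 each) did not pass the test. Capitals mark the element.
Chac1: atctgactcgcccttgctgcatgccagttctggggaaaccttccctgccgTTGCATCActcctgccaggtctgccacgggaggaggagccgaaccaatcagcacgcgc
Pycr1: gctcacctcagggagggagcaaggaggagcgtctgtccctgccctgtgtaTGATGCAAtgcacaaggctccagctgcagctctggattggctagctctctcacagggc

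Targets of p53 fell in the majority, with 3 up and 13 down of 22 and a median of -0.21. Bbc3 (Puma), a death-promoting BH3 protein, fell from 30.9, 27.2 and 26.0 cpm to 15.1, 13.6 and 16.46 cpm (-0.87 ± 0.08, adjusted p = 6.98e-09). Cdkn1a (p21), the cell cycle inhibitor, fell from 51.3, 59.1 and 51.8 cpm to 31.8, 42.6 and 33.8 cpm (-0.60 ± 0.04), and Mdm2 fell by 0.48 on the log2 scale. The groups were separate in Bbc3 and Cdkn1a. Without the pool as a block, the list had 1 gene up and 6 down.

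Lipid synthesis genes rose by small amounts. Of 12 genes of fatty acid synthesis, 10 rose and 0 fell, with a median of 0.25. Scd1, the stearoyl-CoA desaturase, went from 114, 128 and 121 cpm to 178, 180 and 172 cpm (0.59 ± 0.04, adjusted p = 6.95e-11). Me1 (0.47), which supplies NADPH, Acly (0.34) and Fasn (0.31) rose, and Elovl6 (-0.09) and Fads1 (0.01) did not pass the test.

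Cholesterol genes were near level, with 7 up and 3 down of 24 and a median of 0.03. Mvd, a decarboxylase of the mevalonate pathway, dipped and then rose, with log2 changes of -0.13, -0.26, 0.14 and 0.46 at 2, 4, 8 and 12 h. Insig1, which holds back the activation of SREBP, fell from 171, 142 and 162 cpm to 121, 100 and 112 cpm (-0.49 ± 0.04, adjusted p = 2.13e-09), and was lowest at 8 h (-0.62). Hmgcs1 (0.23), Nsdhl (0.31) and Tm7sf2 (0.38) rose, and Srebf2, the transcription factor of the pathway, fell (-0.12).

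The shares of all genes tested that were up and down at 12 h, 23.2% and 21.8%, are the background for the other groups of genes. Nuclear-encoded respiratory chain genes had 16 up and 1 down of 51 (median 0.09), with 9 up without pool B, 12 without pool A, 21 without pool C and 8 with total counts. NRF2 antioxidant genes had 7 up and 0 down of 15 (median 0.14), and glycolysis and hypoxia genes 11 up and 3 down of 27 (median 0.12). Ribosomal protein genes had 2 up and 9 down of 60 (median 0.00), ribosome biogenesis genes 2 up and 10 down of 28 (median -0.06), and glucocorticoid targets 1 up and 6 down of 13 (median -0.19). Clock genes had 3 up and 5 down of 14, and genes that make or carry pyrimidine nucleosides, which handle the uridine added, had 4 up and 3 down of 18 (median 0.01), or 1 and 1 without pool B. Gsta4 (0.70) and Gstm1 (0.63), glutathione transferases, led the NRF2 list, and Vegfa fell (-0.55) where Aldoc (0.54) and Pdk1 (0.50) rose.

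**Figure D4:**
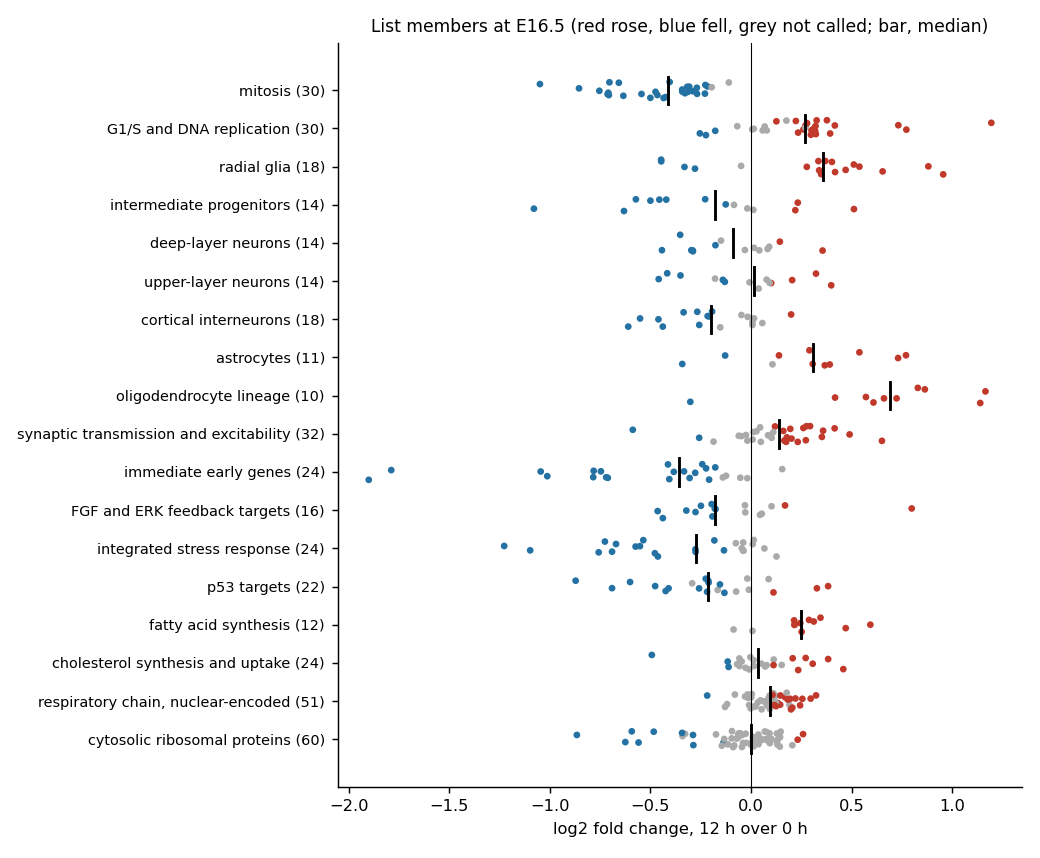
Log2 fold change of 12 h over 0 h (horizontal axis) for every measured member of 18 gene lists, red where it rose, blue where it fell and grey where it did not pass the test, with a bar at each list's median. The mitosis list has no red point, the immediate early and stress response lists have none either, and the fatty acid list has no blue one.

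The largest rises among protein-coding genes of at least 5 cpm did not come from one list. Synpo2, an actin-binding protein, rose from 3.88, 5.40 and 3.34 cpm to 10.9, 11.8 and 9.54 cpm (1.37 ± 0.12, adjusted p = 2.86e-09). Itpr2, an IP3 receptor calcium channel, went from 2.66, 2.89 and 3.29 cpm to 6.07, 8.52 and 7.75 cpm (1.32 ± 0.13). Serpine2, a secreted protease inhibitor, went from 27.2, 31.3 and 29.3 cpm to 54.6, 67.8 and 72.7 cpm (1.17 ± 0.05, adjusted p = 1.92e-13).

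Their groups were separate, and so were those of Smoc1, an extracellular BMP regulator (1.18 ± 0.06), Cbr3, a carbonyl reductase (1.32 ± 0.11), Chst7, a sulfotransferase (1.21 ± 0.12), and Ampd3, an AMP deaminase (1.19 ± 0.12). Ccne2 and Sox10 were also among the 10 largest rises that passed the level of 5 cpm. The 2 h changes of these 9 genes lay between -0.03 (Itpr2) and 0.38 (Sox10). Wif1, an inhibitor of Wnt ligands, rose by 1.28 ± 0.16 from a level under 2 cpm.

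Among the largest falls, beside Egr3, Egr2 and Trib3, was Mmp12, a macrophage elastase, from 8.29, 13.8 and 12.2 cpm to 3.66, 5.25 and 3.63 cpm (-1.44 ± 0.10, adjusted p = 1.51e-10). Lgals3 (galectin-3), also abundant in macrophages, went from 7.00, 9.03 and 9.59 cpm to 3.28, 5.25 and 3.10 cpm (-1.14 ± 0.14), and the lysosomal macrophage gene Cd68 of the microglia list fell by 0.57, while Spp1 (0.53), osteopontin, of that list rose and Csf1r (-0.14) did not pass the test. In Mmp12 and Lgals3 the level at 2 h was close to that at 0 h (0.04 and 0.12).

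Jade2 (-1.38 ± 0.12), a PHD finger protein, went down in 2 stages: log2 changes of -0.65, -0.63 and -0.68 at 2, 4 and 8 h were followed by the fall to 12 h. Trim66 (-1.21 ± 0.11), a chromatin reader, was near its starting level at 8 h (-0.15) and fell after it. Sostdc1 (-1.14 ± 0.13), a secreted BMP and Wnt antagonist, Prx (-1.10 ± 0.16) and the transporter Slc16a6 (-1.10 ± 0.09) fell from the first hours, with changes at 4 h of -0.74, -1.04 and -0.63.

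Of the 36 genes that rose over 2-fold, 26 were protein-coding and 9 pseudogenes, and of the 38 that fell 23 and 8. The steepest rise was a processed pseudogene, Gm8682, at 1.29, 1.37 and 1.01 cpm at 0 h and 7.53, 8.27 and 7.99 cpm at 12 h (2.77, adjusted p = 3.1e-07). Reads of pseudogenes can be shared with their parent genes, so these values are uncertain. Gm9728, another one, was at 37.1, 46.9 and 12.0 cpm in the 3 libraries of 4 h, against 10.4 to 12.3 cpm at 0 h and 38.8 to 56.0 cpm at 12 h, so that at 4 h pools A and B were near the level of 12 h and pool C near that of 0 h. At E14.5 its 3 libraries of 0 h were at 15.1, 35.3 and 51.6 cpm, so its level also differed between libraries of 1 time, and the part of the single library in its change at E16.5 was not tested. Over all processed pseudogenes, 9.88% were up and 18.2% down, against 25.1% and 21.6% of protein-coding genes.

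The median fitted half-lives of all genes called up and down were close. The median half-life was 3.65 h for the 2857 genes called up with a fit, 3.28 h for the 2639 called down and 3.48 h over all 11932. The median conversion rate at 0 h was 1.85%, 1.86% and 1.85%. Among genes changed over 2-fold, the median half-life was 3.85 h for the 27 up and 3.07 h for the 24 down with a fit. These half-lives come from the conversion rates of the same libraries, as a ratio within each gene, and are given as a description. The fit takes the level as constant. Where the level changes, the loss of conversions also depends on that change, so the fits cannot compare decay between genes that rose and fell.

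Whether a change was particular to E16.5 was tested against the same 12 h at the other stages, over 12125 genes above the count limit at all 3 stages. The drift was higher at E16.5 than at E14.5 in 420 genes (3.46%) and lower in 253 (2.09%), and against E11.5 it was higher in 1025 (8.45%) and lower in 1581 (13.0%). The stages are different embryos, with 7 a pool at E11.5 and 2 at the others, and trypsin was applied for longer at later stages, which cannot be told apart from stage. Values in the following paragraphs come from this fit of 18 libraries. Over all 12125 genes, the median change in it was 0.027, 0.002 and 0.013, from the earliest stage to the latest. The share of all genes that rose or fell within each stage is not given here. Counts of list members that rose or fell at a stage therefore have no background, and whether they exceed it was not tested.

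Cholesterol synthesis genes drifted differently at E16.5 than at either other stage. Of 24 genes, 20 drifted higher than at E14.5 and 23 higher than at E11.5, and 0 lower. Their median change was -0.48 at E11.5 and -0.40 at E14.5, where 23 genes fell at each stage, against 0.04 at E16.5. In order of stage, Mvd changed by -0.49, -0.41 and 0.47, a difference of 0.88 ± 0.08 from E14.5 (adjusted p = 6.37e-06). Hmgcs1 changed by -0.61, -0.39 and 0.24, a difference of 0.64 ± 0.08 (adjusted p = 8.55e-05), and Idi1 by -1.08, -0.70 and 0.16. Insig1 fell at all 3 stages, by 1.22, 0.88 and 0.48 on the log2 scale.

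Fatty acid synthesis had 7 of 12 genes higher than at E14.5 and 9 higher than at E11.5, with medians of -0.14, -0.02 and 0.26. Scd1 changed by -0.21, 0.04 and 0.60, a difference of 0.56 ± 0.08 from E14.5 (adjusted p = 0.000299). Unfolded protein response and heat shock genes had 7 of 19 higher than at E14.5 and 11 higher than at E11.5, with medians of -0.13, -0.24 and 0.08.

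Mitotic genes fell at both later stages. Their medians were 0.19 at E11.5, where 19 of 30 rose, -0.43 at E14.5 and -0.40 at E16.5. All 30 drifted lower at E16.5 than at E11.5, whereas against E14.5, 1 was higher and 0 lower. The difference of E16.5 from E14.5 was 0.03 ± 0.08 for Ccnb1 and -0.00 ± 0.08 for Cenpa, and from E11.5 -0.73 ± 0.08 and -0.91 ± 0.08. Of the replication genes 14, 13 and 20 of 30 rose at the 3 stages, with medians of 0.11, 0.14 and 0.28, and 7 of 30 drifted higher at E16.5 than at E11.5.

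Neurog2 had a fall that the other stages lacked. Its change was -0.03 at E11.5 and -0.09 at E14.5, neither past the test, and -1.07 at E16.5, a difference of -0.98 ± 0.10 from E14.5 (adjusted p = 1.32e-05) and of -1.04 ± 0.10 from E11.5 (adjusted p = 1.2e-06). Targets of p53 had 7 of 22 lower and 0 higher than at E14.5, with medians of -0.05, 0.11 and -0.20, and Cdkn1a changed by 0.04, 0.03 and -0.59. Stress response genes had 13 of 24 lower than at E11.5 and 0 lower than at E14.5, with medians of 0.14, -0.32 and -0.27.

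Of the immediate early genes 8, 11 and 16 fell at the 3 stages, with medians of -0.11, -0.25 and -0.35 over 22 genes, and 3 were lower and 1 higher at E16.5 than at E14.5. Egr3 changed by -1.55, -1.78 and -1.88, and its difference from E14.5 was -0.10 ± 0.36 (adjusted p = 0.904). Of 7 oligodendrocyte genes 7, 6 and 6 rose, with medians of 0.74, 0.85 and 0.62, and 1 drifted lower than at E14.5. Of the study's neuron genes, 12 of 57 drifted higher and 0 lower than at E14.5, and 3 higher and 18 lower than at E11.5.

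**Figure D5:**
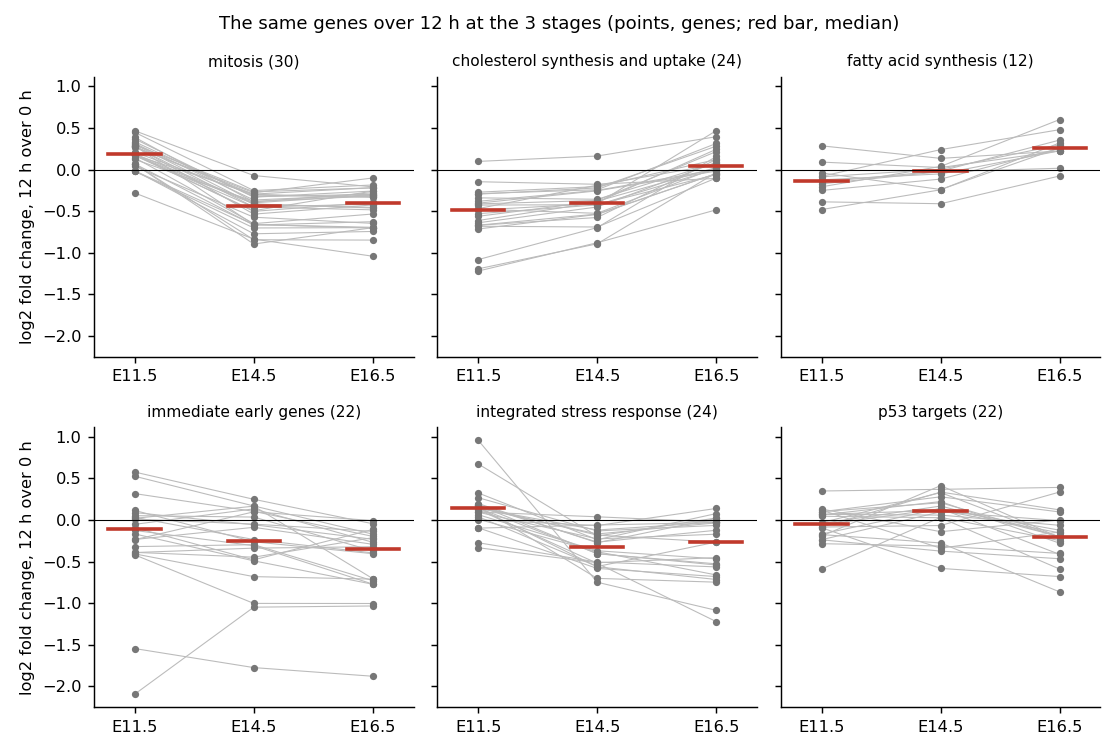
Log2 fold change of 12 h over 0 h (vertical axis) of the same genes at the 3 stages for 6 gene lists, with grey points and lines for genes and red bars for medians. Nearly all cholesterol genes lie below 0 at the earlier stages and around 0 at E16.5, and mitosis genes lie mostly above 0 at E11.5 and below it at the later stages.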

How the data were processed

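Covered Ts per gene, conversion rates and read levels were deposited in 1 table for each stage and pool. Per the study's methods, the authors ran SlamDunk on mm10 with exons of the GENCODE annotation and summed covered and converted Ts over a gene's exons. How multi-mapping reads were treated, and whether counting used the strand that the library kit keeps, is not given in the sources used here. Covered Ts were deposited as raw counts. Per gene, the authors also gave converted over covered Ts, a fraction, and a read level in cpm. Columns were matched by stage, pool and time, with 0 unmatched. In all libraries, 100% of the deposited cpm values were whole multiples of 1 read to within 0.01 reads, and the same test on these reads called 3016 genes up and 2875 down. Of the gene names, 96.6% were in GENCODE M21 (GRCm38, the build of mm10), which gave types and positions.

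Genes with over 500 covered Ts in the 6 end libraries were tested with edgeR 4.0.16 (R 4.3.3; quasi-likelihood F-test, robust, TMM) over the 15 E16.5 libraries, with time as a factor and pool as a block (8 residual degrees of freedom), and Benjamini-Hochberg adjustment over all 12922 genes at 0.05. The block rests on the protocol, in which the 5 wells of a letter hold cells of 1 pool. Deviations of 0 h and 12 h from their group means correlated within pools (r = 0.353, 0.480 and 0.443). Stage differences were tested in 1 fit of the 18 end libraries with 9 pools as blocks, over 12125 genes. With the pool as a block, p-values weigh the mean change over time against the variation left after pool and time. With 1 library per pool and time, that variation holds unequal changes between pools together with noise between wells and libraries. Differences in mean level between pools are taken out. The E16.5 test was also run on simulated counts with changes at 12 h only and no differences between pools. Those counts could not test the block. Fold changes and tests use covered Ts, and levels are given in cpm, both relative to the library's total, so a change in total RNA per well is not seen. Half-lives were fitted by exponential decay of the conversion rate relative to 0 h, and kept with R2 over 0.6 and under 24 h in all 3 pools. The fit takes each gene's level as constant over the chase.

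Genes, members and the 42 lists were chosen with earlier results of these data known. Named were the 10 largest rises and falls among protein-coding genes called over 2-fold, of one direction in all pools and of at least 5 cpm at the higher end. For each list the first 2 measured members and up to 4 called members with the largest changes were named, and for each stage the 5 largest differences each way. Other members were named for their role or as exceptions, after their values were seen. Alternatives were DESeq2 1.42.0, limma 3.58.1 on log2(cpm + 1) and log2(cpm + 0.1), other scalings and filters, no block, and each pool left out. Python 3.11.15 was used for lists and promoter windows. Some genes that these rules name are not reported here.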

Additional observations from a re-analysis of the deposited data

Results flagged for a closer look

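The 5 largest differences in each direction between the 12 h drift at E16.5 and at each other stage, by the interaction test, are given as values (difference of log2 changes). Against E14.5, the drift at E16.5 was lower in Pdgfra (-2.41), Egfr (-1.63), Dlx2 (-1.18), Tmeff2 (-1.17) and Shc4 (-1.08). Pdgfra rose at both stages, by 3.25 at E14.5 from a mean of 1.42 cpm and by 0.84 at E16.5 from 17.8 cpm. Egfr, the EGF receptor, also rose at both, from 30.0 to 123.5 cpm and from 70.4 to 92.0 cpm. The interneuron factor Dlx2 rose at E14.5 (0.97, from 8.10 cpm) and changed by -0.21 at E16.5, from 50.7 cpm, which did not pass the test. Tmeff2 overlaps other annotated genes, so its reads may be shared.

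The drift was higher than at E14.5 in Pla2g7 (1.34), Dgkk (1.22), Kif26b (1.20), Gm47283 (1.03) and Bhlhe40 (1.00). Kif26b fell at E14.5 (-0.67) and rose at E16.5 (0.52), and Pla2g7 fell at E14.5 (-0.57) and rose at E16.5 (0.77). Gm47283 had a fitted change of -0.62 at E14.5 and 0.41 at E16.5, while its mean level went from 2.06 to 2.68 cpm at E14.5 and from 3.41 to 5.24 cpm at E16.5, so that the 2 measures differ in direction at E14.5.

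Against E11.5, the drift was lower in Lars2 (-2.59), Dlx5 (-2.15), Chac1 (-2.05), Nrxn3 (-2.01) and Jade2 (-1.95). Lars2 went from a mean of 321.5 to 1840 cpm at E11.5 and from 134.6 to 151.6 cpm at E16.5. Chac1 rose at E11.5 (0.96) and fell at E16.5 (-1.09), and Jade2 rose at E11.5 (0.57) and fell at E16.5 (-1.38). The drift was higher than at E11.5 in Pla2g7 (2.29), mt-Co2 (2.04), Pcsk5 (1.79), Anxa3 (1.72) and Cadps2 (1.53), which overlaps other annotated genes. Pla2g7, Pcsk5 and Anxa3 fell at E11.5 by 1.52, 1.62 and 1.53 on the log2 scale.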

How the results depend on the processing

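The counts of genes that changed at 12 h kept within 1.5 times under all alternatives. Without the pool as a replicate block, 2171 genes rose and 1987 fell, all 4158 of them called with the block and in the same direction, and the course had 5730. Leaving out each pool gave 2205 to 2521 genes up, 2024 to 2443 down, 33 to 41 up over 2-fold, 36 to 47 down over 2-fold and 6221 to 6891 over the course. DESeq2 gave 3078 and 3025. Scaling by total counts gave 2552 and 3330, moving the median of all genes to -0.025. Counts over 2-fold depend on the filter on low values: 12 and 10 with over 2000 covered Ts, 87 and 149 with over 100, 159 and 683 with no filter, 24 down with protein-coding genes only, and 19 and 12 with limma on log2(cpm + 1). Without the replicate block, interneuron genes had 1 up and 5 down, intermediate progenitor genes 1 and 6, upper-layer genes 2 and 3, axon guidance genes 5 and 8, astrocyte genes 6 and 0, Notch genes 3 and 4, glycolysis genes 8 and 1, ribosomal protein genes 1 and 6 (8 and 9 in the end libraries alone), pyrimidine genes 2 and 2, respiratory chain genes 8 and 1, and the study's progenitor genes 7 and 20 and neuron genes 19 and 2. The stage differences depend on the pairing: without the replicate block, 56 genes were higher and 27 lower than at E14.5, and 444 and 757 against E11.5. DESeq2 gave 684 and 408 against E14.5. Leaving out a pool gave 161 to 640 higher and 79 to 560 lower than at E14.5, lowest without E16.5 A and highest without E14.5 B (211 and 96 without E16.5 B, 219 and 107 without E16.5 C, 270 and 125 without E14.5 A, 278 and 156 without E14.5 C). Against E11.5 it gave 648 to 940 higher and 985 to 1557 lower (leaving out pool A of E16.5 gave 648 higher, its pool B 666 and 1053, and pool B of E11.5 985 lower). The cause was not tested. Among list medians of at least 0.01 in size, that of Notch genes turned from 0.02 to -0.01 with total counts and without pool B and to -0.00 without pool C (0.01 without pool A), that of upper-layer genes from 0.01 to -0.01 with total counts and -0.03 without pool C, that of pyrimidine genes from 0.01 to -0.02 with total counts, and that of BMP and TGF-beta targets from -0.06 to 0.01 without pool C. The block changed 46 calls of named genes, all lost without it. Depth limits the genes under 500 covered Ts, which were not tested.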

Other observations

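Of the 9 pseudogenes that rose over 2-fold at E16.5, 5 (Eif1-ps2, Gm11258, Gm5666, Gm8682 and Gm9728) were over 1.5-fold higher in every library of 8 h and 12 h and in pools A and B at 4 h than in every library of 0 h and 2 h and in pool C at 4 h. They are the only members with this split of libraries, which was chosen after the values were seen, and 0 members had it the other way. At the other stages their levels did not follow chase time in the same way: Gm11258 was at 9.62, 7.26 and 6.65 cpm at 0 h and 26.8, 5.03 and 3.35 cpm at 12 h in pools A, B and C of E11.5, and at 6.81, 31.6 and 41.3 cpm and 28.9, 30.1 and 28.1 cpm at E14.5. Gm9728 was at 15.6, 14.6 and 7.23 cpm and 55.1, 8.40 and 3.55 cpm at E11.5. Of the 9, Gm8682 and Tpt1-ps5 had separate groups at E14.5 too, and none had at E11.5.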
